A study of Mus musculus with 2 samples.

Results

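The genes described here are 34 of the 31053 genes listed in each library, chosen by symbol from what they are known to do. Of these, 17 belong to MHC class I antigen presentation, 15 are interferon-induced GTPases of the Gbp and Irg families, and 2, Nlrc5 and Irf1, encode transcription regulators of such genes. All 34 symbols were found in both libraries. They were followed in natural killer (NK) cells sorted by flow cytometry from mouse brain and read with the 10x Genomics 5′ single-cell chemistry. There was 1 library from wildtype C57BL/6 mice and 1 library from 3XTg-AD mice, in both cases females aged 8 months. The 3XTg-AD mouse is a model of Alzheimer's disease that carries human mutant amyloid precursor protein and tau transgenes driven by the neuronal Thy1 promoter. The transgenes are human and neuronal, so these counts did not check the genotype, and neither the number of mice pooled per library nor the background strain of the 3XTg-AD animals is known here.

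MHC class I molecules display short peptides from inside a cell on its surface, where T cells read them and where NK cell receptors sense whether a cell still carries them. The peptides are cut by the proteasome, moved into the endoplasmic reticulum by the Tap1-Tap2 transporter, and loaded onto a heavy chain paired with β2-microglobulin. Interferon-γ raises most of this machinery in many cell types, partly through Nlrc5 and Irf1, and interferons also induce the Gbp and Irg GTPases, which attack the vacuoles of intracellular microbes. NK cells carry class I molecules themselves, and their own class I levels take part in the tuning of NK cell responsiveness.

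On the mm10 build, 12 of the 17 presentation genes lie on chromosome 17 between positions 33915899 and 36042747, the mouse MHC region. B2m is on chromosome 2, Tapbpl on chromosome 6, Psmb10 on chromosome 8, and Psme1 and Psme2 on chromosome 14. The GTPase genes form clusters, with Gbp2, Gbp3, Gbp5 and Gbp7 on chromosome 3 (142493978 to 142638008), Gbp4, Gbp6, Gbp8 and Gbp9 on chromosome 5 (105014150 to 105293698), and 6 Irg genes on chromosome 11 (48861968 to 58222782). Several neighbours share or resemble sequence. Gbp4, Gbp8 and Gbp9 overlap on the same strand, as do Igtp and Irgm2, and Psmb9 and Tap1 overlap on opposite strands. Tgtp1 and Tgtp2 are near-identical, and the Q-region genes H2-Q4, H2-Q6 and H2-Q7 resemble each other. The split of counts within each of these sets is therefore uncertain.

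Promoter sequences were taken from RefSeq on GRCm38.p6, where 26 of the 34 genes had an entry. The 250 bases upstream of each start were searched on both strands for 4 motifs, which can overlap each other. The interferon-stimulated response element core, searched as GAAANNGAA, was found in 8.18% of the 27025 genes with an entry. It was present in 9 of 10 GTPase genes (all but Ifi47) and in 3 of 15 presentation genes (B2m, H2-T22 and H2-T23). A shorter form, GAANNGAAA, was held by 7.30% of genes and by the classical and Q-region heavy chains H2-D1, H2-K1, H2-Q4, H2-Q6 and H2-Q7, as well as by 6 of 10 GTPase genes. The κB site of class I promoters, GGGATTCCC, was held by 0.352% of genes and by H2-D1, H2-K1, H2-Q6 and H2-Q7. A match describes letters in a window and is no sign that a factor binds there.

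The upstream sequences of 5 class I genes are shown because the heavy chains H2-K1, H2-Q6 and H2-Q7 carry the κB site and the shorter interferon-response match in nearly the same context, while H2-T22 and B2m carry the longer core and no κB match. Capitals mark the κB site and the interferon-response matches.
H2-K1, chr17:34000358-34000477, minus strand: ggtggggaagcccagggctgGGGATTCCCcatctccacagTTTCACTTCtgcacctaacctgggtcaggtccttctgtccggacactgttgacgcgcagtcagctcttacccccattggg
H2-Q6, chr17:35424658-35424777, plus strand: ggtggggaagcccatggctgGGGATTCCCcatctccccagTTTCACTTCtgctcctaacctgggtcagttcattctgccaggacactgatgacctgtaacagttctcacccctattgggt
H2-Q7, chr17:35439003-35439122, plus strand: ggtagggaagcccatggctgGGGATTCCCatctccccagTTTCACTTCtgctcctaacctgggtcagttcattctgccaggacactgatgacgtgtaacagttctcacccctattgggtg
H2-T22, chr17:36042833-36042952, minus strand: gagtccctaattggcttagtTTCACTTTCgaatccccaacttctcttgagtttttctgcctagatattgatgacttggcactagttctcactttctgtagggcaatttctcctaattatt
B2m, chr2:122147528-122147647, plus strand: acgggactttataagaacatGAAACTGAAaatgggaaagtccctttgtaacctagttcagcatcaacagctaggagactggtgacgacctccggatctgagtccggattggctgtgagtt

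The gamma-activated site TTCNNNGAA was held by 8.13% of genes, by 6 of 10 GTPase genes and by 1 presentation gene, Psmb8. The upstream sequences of Igtp, Tgtp2 and Gbp7 are shown because they pair that site with interferon-response matches, within one merged run of capitals in Igtp and Tgtp2.
Igtp, chr11:58199436-58199555, plus strand: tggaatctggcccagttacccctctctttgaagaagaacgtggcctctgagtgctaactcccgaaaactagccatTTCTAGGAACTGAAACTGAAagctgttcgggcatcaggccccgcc
Tgtp2, chr11:49064213-49064332, minus strand: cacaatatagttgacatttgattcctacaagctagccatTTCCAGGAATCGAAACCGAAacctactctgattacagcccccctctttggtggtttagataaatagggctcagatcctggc
Gbp7, chr3:142530210-142530329, plus strand: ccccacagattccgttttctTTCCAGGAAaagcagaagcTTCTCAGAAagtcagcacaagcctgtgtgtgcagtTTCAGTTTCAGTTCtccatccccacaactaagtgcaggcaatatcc

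The libraries held 1709 wildtype and 1695 3XTg-AD barcodes with 5559995 and 5468455 unique molecular identifiers (UMIs) and medians of 2930 and 2846 UMIs per barcode, and 1 barcode sequence was shared between them. After filters, 1479 wildtype and 1523 3XTg-AD barcodes were NK barcodes, defined by at least 3 UMIs of 5 NK genes, and Ncr1 had a UMI in 95.8% and 98.2% of them. A further 101 and 79 barcodes were ILC1-like, defined by at least 3 UMIs summed over Itga1, Cxcr6, Inpp4b, Gzmc and Tnfsf10. ILC1 are tissue-resident relatives of NK cells. Summed marker levels in NK barcodes, wildtype then 3XTg-AD, were 7.78 and 14.8 counts per 1000000 UMIs (CPM) for 8 myeloid genes, 16.6 and 30.4 CPM for 5 T cell genes, 16.9 and 0 CPM for 4 hemoglobin genes, 0 and 5.13 CPM for 5 neutrophil genes, and 0 in both for 4 B cell genes. The part of these other cells' transcripts in the results was not tested.

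UMIs were summed over the barcodes of a population, divided by the population's total UMIs to give CPM, and compared as ratios with exact conditional 95% intervals. With 1 library per group these intervals cover counting error only, not animals, preparations or variation between cells, and no test between genotypes was possible. Genotype, library and any difference in strain background cannot be told apart, and MHC and GTPase genes are known to vary in sequence between mouse strains. A gene counted as measured in a comparison with at least 50 UMIs over both sums, and a ratio of 1.5-fold in either direction was the threshold for counting members. UMIs of different genes are not scaled by transcript length, so levels are compared here between populations and not between genes.

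In NK barcodes the class I presentation genes were lower in the 3XTg-AD than in the wildtype library, mainly through the heavy chains and B2m. Summed over the 17 genes, the level was 10536 CPM in the wildtype and 9214 CPM in the 3XTg-AD library, a ratio of 0.875 (0.863 to 0.886). All 17 were measured, and 15 had a ratio below 1, against 40.7% of all 8566 measured genes. None reached a 1.5-fold difference, against 3.47% of all genes lower and 4.63% higher by that much. The median log2 ratio was -0.10 for the 17 genes and 0.06 for all genes. The differences were thus small and mostly in one direction.

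Among the heavy chains, H2-K1 and H2-D1 encode the classical class I molecules of C57BL/6 mice and gave 24.02% and 22.7% of the list's wildtype UMIs. H2-K1 was at 2531 CPM in the wildtype and 2088 CPM in the 3XTg-AD library, a ratio of 0.825 (0.803 to 0.848). H2-D1 was at 2386 and 2225 CPM, a ratio of 0.932 (0.907 to 0.958). The interval of H2-K1 lay wholly below that of H2-D1, so these classical chains did not differ between libraries by the same ratio. The nonclassical chains of the Q region stood lower still. H2-Q4 was at 193 CPM in the wildtype and 129 CPM in the 3XTg-AD library, a ratio of 0.668 (0.602 to 0.742) that lies just short of 1.5-fold. H2-Q7, which encodes Qa-2 together with neighbours of that region, was at 489.6 and 352 CPM, a ratio of 0.720 (0.675 to 0.767). H2-Q6 was at 238 and 195.5 CPM, a ratio of 0.822 (0.752 to 0.898). Since these Q genes resemble each other, the ratio of each one is less certain than that of all 3.

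The T-region chains differed less. H2-T22, a ligand of some γδ T cell receptors, was at 313.9 CPM in the wildtype and 277.5 CPM in the 3XTg-AD library, a ratio of 0.884 (0.820 to 0.953). H2-T23, which encodes Qa-1, the ligand of the NK receptor pair CD94-NKG2A, was at 234 and 228 CPM, a ratio of 0.973 (0.893 to 1.06) whose interval includes 1. All 7 heavy chains were below 1, with a median log2 ratio of -0.28. B2m, the light chain shared by all of them, was at 1557 CPM in the wildtype and 1244 CPM in the 3XTg-AD library, a ratio of 0.799 (0.772 to 0.827).

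The peptide loading genes did not move together. Tap2, a subunit of the peptide transporter, was higher in the 3XTg-AD library, at 102 CPM in the wildtype and 135 CPM in the 3XTg-AD library, a ratio of 1.33 (1.18 to 1.5). Tap1, its partner in the same transporter, was at 70.2 and 63.3 CPM, a ratio of 0.902 (0.768 to 1.06). The intervals of these partner subunits did not overlap. Tapbp (tapasin), which bridges the transporter to class I, was at 147 and 139 CPM, with a ratio of 0.942 (0.845 to 1.05). Tapbpl, a tapasin relative that edits peptides, was at 63.95 and 63.97 CPM, with a ratio of 1.0 (0.849 to 1.18).

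The inducible proteasome subunits were all slightly lower. Psmb8, Psmb9 and Psmb10 are the catalytic subunits of the immunoproteasome, and Psme1 and Psme2 form its PA28 activator. Their 5 ratios ran from 0.919 for Psme2 to 0.957 for Psmb9. Summed, they were at 2210 CPM in the wildtype and 2074 CPM in the 3XTg-AD library, a ratio of 0.938 (0.913 to 0.965). The 16 constitutive proteasome genes, which make the standard particle and its other activators, were summed at a ratio of 1.01 (0.990 to 1.04), with 6 of 16 below 1. The most divergent of these by log2 ratio were Psmb7 at 1.15 (0.931 to 1.43), Psmb1 at 0.914 (0.849 to 0.984) and Psma2 at 1.07 (0.994 to 1.16).

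Of the regulators, Nlrc5, the transactivator that binds class I promoters, was at 33.05 CPM (153 UMIs) in the wildtype and 18.4 CPM (86 UMIs) in the 3XTg-AD library, a ratio of 0.557 (0.422 to 0.730). This was the lowest ratio among the measured members, with that of Igtp next to it. Irf1, an interferon-regulatory factor, was at 227 and 242 CPM, a ratio of 1.07 (0.982 to 1.16) whose interval includes 1.

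**Figure D1:**
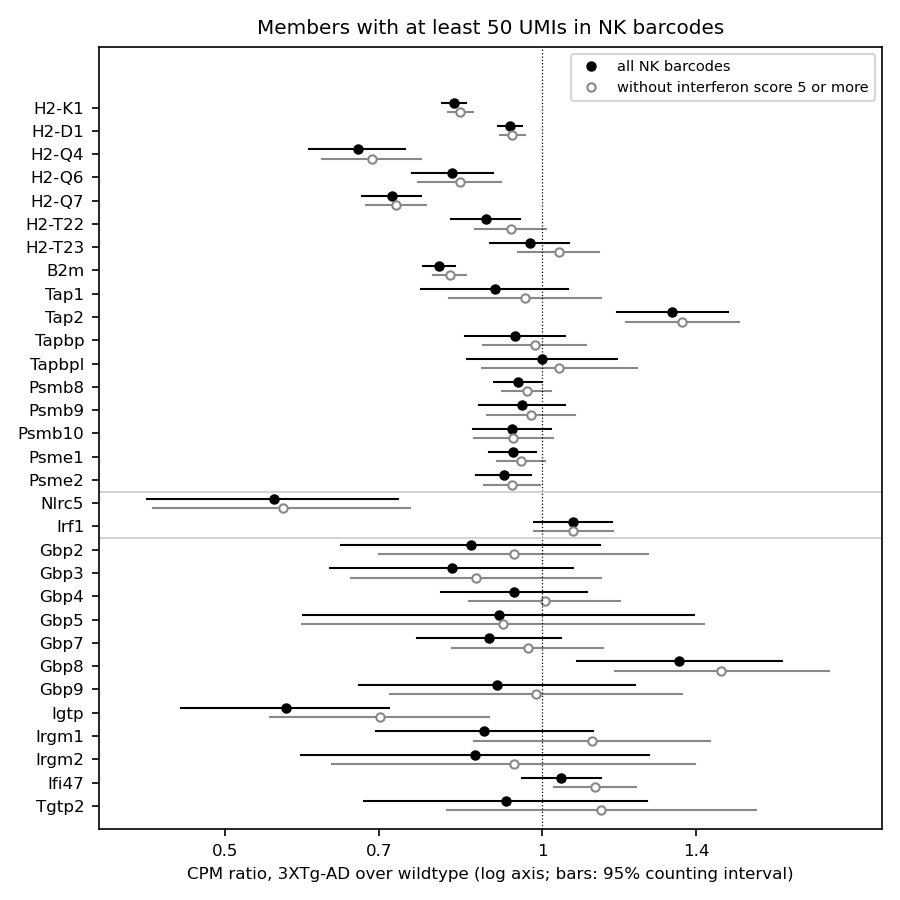
Ratio of CPM in the 3XTg-AD library to CPM in the wildtype library for each measured gene, summed over NK barcodes, on a log axis; filled points are all NK barcodes, open points leave out barcodes with an interferon score of 5 or more, and bars are 95% counting intervals. Igtp at 0.571 and Nlrc5 at 0.557 stand lowest, and Tap2 at 1.33 and Gbp8 at 1.35 stand highest.

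The GTPase genes were mostly slightly lower in the 3XTg-AD library too, with Igtp the lowest. Summed over the 15 genes, the level was 603 CPM in the wildtype and 563.5 CPM in the 3XTg-AD library, a ratio of 0.935 (0.886 to 0.986). Of the 12 measured, 10 had a ratio below 1 and 1 was at least 1.5-fold lower, against 40.7% and 3.47% of all genes. The median log2 ratio was -0.15, against 0.06 for all genes. Ifi47 alone gave 1032 of the 2790 wildtype UMIs, and the other 14 genes summed to a ratio of 0.871 (0.813 to 0.934).

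Among the Irg genes, Igtp (Irgm3), a regulatory GTPase of the family, was at 46.4 CPM (215 UMIs) in the wildtype and 26.5 CPM (124 UMIs) in the 3XTg-AD library, a ratio of 0.571 (0.454 to 0.716). Ifi47 (Irgd), an effector GTPase, was at 223 and 232.5 CPM, a ratio of 1.04 (0.957 to 1.14). The other regulatory members lay between these. Irgm1 was at 33.5 and 29.5 CPM, a ratio of 0.882 (0.696 to 1.12). Irgm2, which overlaps Igtp, was at 13.6 and 11.8 CPM, a ratio of 0.865 (0.591 to 1.26). Tgtp2, an effector GTPase that coats microbial vacuoles, was at 19.4 and 17.97 CPM, a ratio of 0.924 (0.678 to 1.26). Igtp was the only measured Irg gene whose interval excluded 1. The Irg genes with few reads were Tgtp1 with 20 wildtype and 2 3XTg-AD UMIs, and Iigp1 (Irga6) with 9 and 1 UMIs, both below the minimum of 50.

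Among the guanylate-binding proteins, Gbp8 was higher in the 3XTg-AD library, at 30.5 CPM in the wildtype and 41.1 CPM in the 3XTg-AD library, a ratio of 1.35 (1.08 to 1.69). Gbp4 and Gbp9, which overlap it, were at ratios of 0.941 (0.802 to 1.10) and 0.907 (0.670 to 1.23). Gbp2, which targets vacuoles and bacteria, was at 23.98 and 20.5 CPM, a ratio of 0.856 (0.645 to 1.14). Gbp3, Gbp5 and Gbp7 were at ratios of 0.821, 0.909 and 0.891, each with an interval that includes 1. Gbp5 is known for promoting inflammasome assembly. Gbp6 had 20 wildtype and 5 3XTg-AD UMIs and was not measured. Gbp8 was thus the only measured Gbp gene whose interval excluded 1.

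Genes outside the 34 gave a frame for these values. Of 12 measured other class I and processing genes, 7 were below 1 (40.7% of all genes) and 1 was at least 1.5-fold higher (4.63%), and they summed to a ratio of 1.04 (1.0 to 1.08). The nonclassical chain H2-M3, which presents formylated peptides, was at 0.765 (0.631 to 0.927), the peptidase gene Ide at 1.36 (1.09 to 1.69), and H2-T24 at 1.53 (0.889 to 2.67) on 24 and 37 UMIs. Of 20 measured interferon signalling genes, 8 were below 1 (40.7%) and 4 at least 1.5-fold lower (3.47%). Socs1, a feedback inhibitor of cytokine signalling, was at 0.450 (0.392 to 0.515), and Irf7 and Irf9, transcription factors of the type I interferon response, were at 0.595 (0.511 to 0.693) and 0.605 (0.474 to 0.768). Among 4 measured other interferon-induced GTPases, Mx1, an antiviral GTPase, was at 0.264 (0.142 to 0.464), Gvin1, a very large GTPase, at 3.1 (1.92 to 5.20), and 9930111J21Rik2 at 0.719 (0.554 to 0.930).

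A small set of wildtype barcodes had a higher GTPase level than the others. An interferon score was formed per barcode as the UMIs of 16 interferon-stimulated genes, none of them among the 34, such as Ifit3 and Isg15. Irf7 and Mx1, whose library ratios are given above, are also among the 16, so those ratios are not separate from the score. A score of 5 or more was held by 67 wildtype NK barcodes (4.53%) and 5 3XTg-AD NK barcodes (0.328%). In the wildtype library these 67 barcodes held 5.53% of NK UMIs, 7.18% of presentation UMIs and 15.3% of GTPase UMIs. Their CPM over that of the remaining wildtype NK barcodes was 3.098 (2.79 to 3.44) for the GTPase list and 1.32 (1.28 to 1.37) for the presentation list. The median depth of these barcodes was 3289 UMIs against 2863 in the others. Myeloid markers were at 23.5 and 6.86 CPM (6 and 30 UMIs) and NK lineage markers at 4246 and 5441 CPM in the same order, and their part in the difference was not tested.

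The members ranged widely in this contrast. Irgm1 was 6.35-fold (4.35 to 9.13), Tgtp2 5.87-fold (3.49 to 9.55) and Igtp 5.05-fold (3.59 to 6.98) higher in the barcodes with a score of 5 or more. All 9 wildtype UMIs of Iigp1, 12 of 20 of Tgtp1 and 7 of 20 of Gbp6 lay in these barcodes. Apart from Gbp6, at 9.21 (3.11 to 24.8) on these few UMIs, the Gbp genes stood lower, with Gbp9 at 3.21 and Gbp7 at 2.76. The Irg genes Irgm2, at 2.85 (1.24 to 5.82), and Ifi47, at 2.38 (1.96 to 2.87), stood lower as well. Among presentation genes, Tap1 at 2.26 (1.57 to 3.18), H2-T23 at 2.13 (1.75 to 2.58) and H2-T22 at 2.07 (1.74 to 2.45) were highest. H2-K1 was at 1.24 and H2-D1 at 1.10, and Psmb10 at 1.08 (0.828 to 1.38) and Irf1 at 1.06 (0.801 to 1.37) had intervals that include 1.

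With the barcodes of score 5 or more left out of both libraries, the 2 lists parted. The presentation list was at 10351 CPM in the wildtype and 9209 CPM in the 3XTg-AD library, a ratio of 0.890 (0.878 to 0.902). The GTPase list was at 540 and 561 CPM, a ratio of 1.04 (0.982 to 1.10), so that its summed deficit in the 3XTg-AD library was no longer seen. Of 12 measured GTPase genes 7 were below 1 and 0 were at least 1.5-fold lower or higher, against 40.7%, 3.06% and 4.82% of all genes in these barcodes. Igtp was still at 0.702 (0.552 to 0.891), Irgm1 was at 1.11 (0.861 to 1.44) and Ifi47 at 1.12 (1.03 to 1.23). Gbp8 was at 1.48 (1.17 to 1.87), the highest of the measured GTPase genes. For presentation genes and regulators the ratios moved little, to 0.836 for H2-K1, 0.727 for H2-Q7, 0.817 for B2m, 0.568 for Nlrc5 and 1.36 for Tap2.

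In the wildtype library both lists were at higher levels in each higher bin of the score. Wildtype NK barcodes with a score of 0, 1 to 2, 3 to 4, and 5 or more had summed GTPase levels of 502, 549.5, 698 and 1673 CPM. The matching presentation levels were 10019, 10401, 11958 and 13692 CPM. In the 3XTg-AD library the first 3 bins had GTPase levels of 543, 574 and 634 CPM and presentation levels of 8892, 9449.9 and 10455 CPM, while its 5 barcodes of score 5 or more held 24 GTPase UMIs (1175 CPM) and 211 presentation UMIs (10331 CPM), the latter below the level of the 3 to 4 bin with an interval of 8984 to 11823 CPM. At equal score the presentation list stayed lower in the 3XTg-AD library, with ratios of 0.888 (0.870 to 0.905) at score 0, 0.909 (0.891 to 0.926) at 1 to 2 and 0.874 (0.831 to 0.920) at 3 to 4. The GTPase list was at 1.08 (0.994 to 1.18), 1.04 (0.961 to 1.13) and 0.908 (0.733 to 1.12) in the same bins, each interval including 1. Tap2, higher in the 3XTg-AD library over all NK barcodes, was at 1.10 (0.916 to 1.33) at score 0, an interval that includes 1. It was at 1.65 (1.37 to 1.97) at 1 to 2 and 1.62 (0.986 to 2.68) at 3 to 4.

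**Figure D2:**
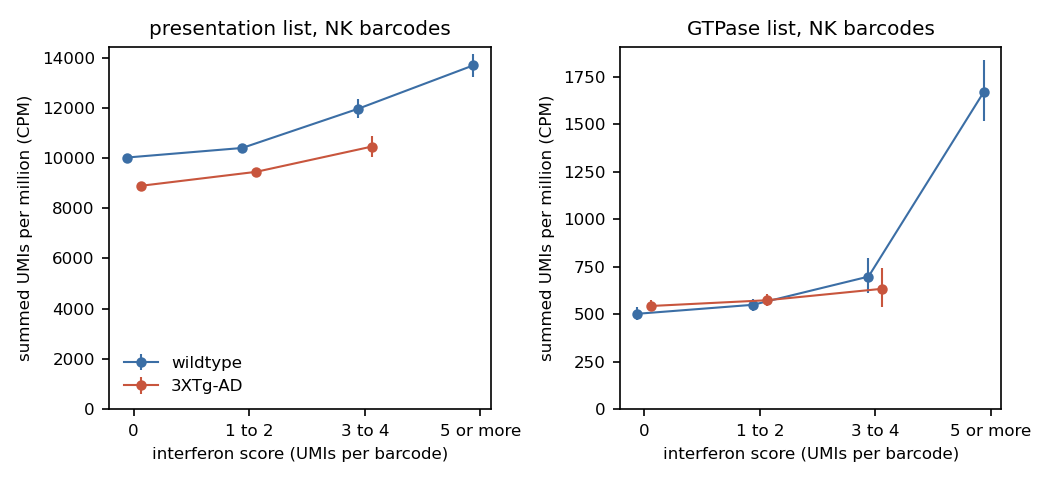
Summed CPM of the presentation list and of the GTPase list in NK barcodes, by bins of the interferon score (0, 1 to 2, 3 to 4, 5 or more) and by library, with 95% counting intervals as bars; a bin needed 20 barcodes, so the 5 3XTg-AD barcodes of score 5 or more are not drawn. Wildtype GTPase levels run from 502 to 1673 CPM and presentation levels from 10019 to 13692 CPM.

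Barcodes with a score of 3 or more were also set against those with a score of 0 in each library, 150 against 683 in the wildtype and 58 against 850 in the 3XTg-AD library. The GTPase list was at 2.25 (2.03 to 2.49) in the wildtype and 1.25 (1.06 to 1.46) in the 3XTg-AD library, and the presentation list at 1.27 (1.24 to 1.31) and 1.17 (1.13 to 1.22). Igtp was at 4.43 and 1.87, Irgm1 at 4.42 and 2.38, and Tgtp2 at 2.31 and 2.32 in the 2 libraries. The wildtype set holds the 67 barcodes of score 5 or more, so the sets differ in how high their scores reach.

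Among NK barcodes thinned to 1400 UMIs, 1371 in the wildtype and 1443 in the 3XTg-AD library after 108 and 80 shallower ones were left out, the lower presentation level was spread over the population. The median was 14 presentation UMIs per barcode in the wildtype and 12 in the 3XTg-AD library, with 10th percentiles of 8 and 6 and 90th percentiles of 23 and 20. H2-K1 was without a UMI in 6.49% of wildtype and 10.7% of 3XTg-AD barcodes, and had 3 or more in 62.1% and 50.7%. B2m was without a UMI in 13.1% and 19.6%. Before thinning, H2-K1 had a UMI in 98.2% of wildtype and 96.3% of 3XTg-AD NK barcodes, and B2m in 94.997% and 92.6%. For the GTPase list the share without a UMI was 47.9% and 47.3%. Barcodes with 3 or more GTPase UMIs were 98 in the wildtype (7.15%, Clopper-Pearson interval 5.84 to 8.64) and 69 in the 3XTg-AD library (4.78%, 3.74 to 6.01), with intervals that overlap and treat barcodes of 1 library as independent. Of these, 27 and 2 had an interferon score of 5 or more.

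NK barcodes were split by Cd27, a receptor of less mature NK cells, and Klrg1, an inhibitory receptor of mature ones. A barcode with no UMI of a gene may still express it, so the split is by detection, and 645 wildtype and 701 3XTg-AD NK barcodes had neither. Cd27-only barcodes numbered 125 and 101, and Klrg1-only barcodes 680 and 683. An interferon score of 5 or more was held by 9.60% of Cd27-only, 2.06% of Klrg1-only and 6.20% of neither-detected wildtype barcodes, and by 1.98%, 0.146% and 0.285% of those in the 3XTg-AD library. The part of these barcodes in the differences by status was not tested.

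In each of these 3 populations the presentation list was lower in the 3XTg-AD library. In Cd27-only barcodes it was at 10467 CPM in the wildtype and 8485 CPM in the 3XTg-AD library, a ratio of 0.811 (0.773 to 0.850). There 13 of 16 measured genes were below 1, against 46.1% of all genes, and 4 were at least 1.5-fold lower, against 5.19%, and 0 as much higher, against 7.35%. These were H2-Q4 at 0.510 (0.331 to 0.769), H2-Q7 at 0.590 (0.464 to 0.746), H2-T23 at 0.640 (0.447 to 0.906) and Tapbp at 0.658 (0.432 to 0.989). In Klrg1-only barcodes the list was at 10603 and 9547 CPM, a ratio of 0.900 (0.884 to 0.917), with 11 of 17 below 1 (42.7% of all genes), 0 at least 1.5-fold lower (3.56%) and 0 higher (6.08%). In neither-detected barcodes it was at 10518 and 8919 CPM, a ratio of 0.848 (0.830 to 0.866), with 16 of 17 below 1 (40.2%), 0 at least 1.5-fold lower (3.67%) and 0 higher (6.03%). The 29 wildtype and 38 3XTg-AD barcodes with both genes were at 9753 and 9382 CPM, a ratio of 0.962 (0.892 to 1.04).

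The members followed the list to different degrees. H2-K1 was at 2510 CPM in wildtype and 1899 CPM in 3XTg-AD Cd27-only barcodes, at 2541 and 2203 CPM in Klrg1-only barcodes, and at 2533 and 1965 CPM in neither-detected barcodes. Its wildtype levels were thus nearly level across the statuses, while its 3XTg-AD levels were spread. B2m was at ratios of 0.679 (0.599 to 0.769), 0.848 (0.808 to 0.891) and 0.766 (0.724 to 0.810) in the same order. Tap2 was above 1 in each, at 1.14 (0.707 to 1.82), 1.30 (1.10 to 1.54) and 1.42 (1.16 to 1.73). Nlrc5 was at 0.576 (0.376 to 0.870) in Klrg1-only and 0.473 (0.310 to 0.712) in neither-detected barcodes. Whether the ratios differ between statuses was not tested.

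The GTPase list did not show one direction across the statuses. In Klrg1-only barcodes it was at 578 CPM in the wildtype and 585 CPM in the 3XTg-AD library, a ratio of 1.01 (0.938 to 1.09), with 4 of 11 measured genes below 1 (42.7% of all genes) and 1, Igtp at 0.660 (0.475 to 0.911), at least 1.5-fold lower (3.56%). In neither-detected barcodes it was at 630.3 and 536 CPM, a ratio of 0.850 (0.780 to 0.927). There 8 of 10 were below 1 (40.2%) and 3 were at least 1.5-fold lower (3.67%), Igtp at 0.447 (0.306 to 0.644), Gbp9 at 0.588 (0.356 to 0.956) and Gbp2 at 0.643 (0.393 to 1.04). In Cd27-only barcodes it was at 669.9 and 565 CPM, a ratio of 0.844 (0.699 to 1.02), and 2 genes were measured. Of these, Gbp7 was at 0.600 (0.338 to 1.03), at least 1.5-fold lower (5.19% of all genes), and Ifi47 was at 1.09 (0.787 to 1.496). Igtp was the one GTPase gene at least 1.5-fold lower in both large populations.

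Within each library, Klrg1-only barcodes were then set against Cd27-only barcodes. The presentation list was at a ratio of 1.01 (0.981 to 1.05) in the wildtype and 1.13 (1.08 to 1.17) in the 3XTg-AD library. In the wildtype 8 of 17 genes were below 1 (46.2% of all genes), 1 was at least 1.5-fold lower (7.66%) and 0 higher (11.1%). In the 3XTg-AD library 4 of 17 were below 1 (45.1%), 0 were at least 1.5-fold lower (7.73%) and 2 higher (14%). Those 2 were Tap1 at 2.12 (1.15 to 4.34) and H2-T23 at 1.70 (1.27 to 2.30). In the wildtype the same ratios were 0.883 for Tap1 and 1.06 for H2-T23, and the gene at least 1.5-fold lower was Tapbpl at 0.546 (0.379 to 0.800). H2-D1 was higher in Klrg1-only barcodes of both libraries, at 1.18 and 1.22, and H2-Q6 lower, at 0.774 and 0.765. Irf1 was at 0.995 in the wildtype and 1.71 (1.29 to 2.31) in the 3XTg-AD library.

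For the GTPase list the Klrg1-only over Cd27-only ratio was 0.863 (0.758 to 0.985) in the wildtype and 1.04 (0.890 to 1.21) in the 3XTg-AD library. Irgm1 was at 0.514 (0.319 to 0.856) in the wildtype and 0.940 in the 3XTg-AD library, and Gbp7 at 0.628 and 1.14. The wildtype Cd27-only barcodes are those with the largest share of high interferon scores among the statuses, as given above.

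**Figure D3:**
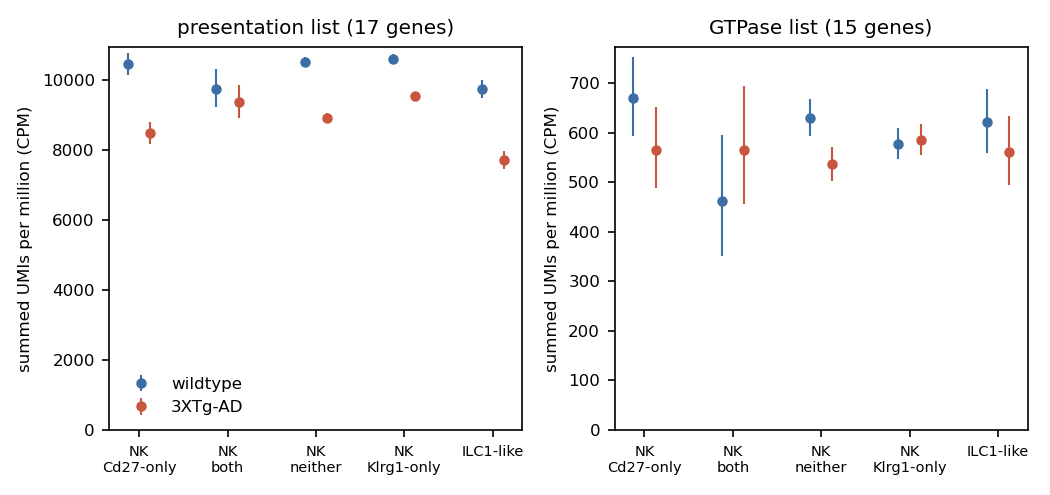
Summed CPM of the presentation list and of the GTPase list in NK barcodes by Cd27 and Klrg1 detection (Cd27-only, both, neither, Klrg1-only) and in ILC1-like barcodes, by library, with 95% counting intervals as bars. The presentation level is lower in the 3XTg-AD library in Cd27-only (8485 against 10467 CPM), neither-detected, Klrg1-only and ILC1-like barcodes (7715 against 9752 CPM).

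ILC1-like barcodes were checked with genes outside their rule. S1pr5 and Zeb2 are genes of circulating NK cells. They were at 372 and 207 CPM in wildtype NK barcodes and at 11.8 and 18.5 CPM in wildtype ILC1-like barcodes. Klra4 and Klra8, also checked as NK genes, differed less, at 474 and 376 CPM in wildtype NK and 276 and 195 CPM in ILC1-like barcodes. Tmem176b, an ILC1 gene, was at 24.2 CPM in wildtype NK and 124 CPM in wildtype ILC1-like barcodes. Il7r, also checked as an ILC1 gene, was not higher there, at 53.6 CPM in wildtype NK and 47.1 CPM in wildtype ILC1-like barcodes. In the 3XTg-AD library Il7r was at 23.96 CPM in NK and 81.7 CPM in ILC1-like barcodes. Eomes, a factor that marks NK cells rather than ILC1, was nearly as high in ILC1-like barcodes as in NK barcodes, at 183 against 217 CPM in the wildtype and 197 against 236 CPM in the 3XTg-AD library. The class is therefore described by its rule. It rests on few UMIs, since 21 ILC1-like barcodes in the wildtype and 23 in the 3XTg-AD library had exactly 3, and a further 40 and 29 just outside had exactly 2. ILC1-like barcodes were also deeper, with medians of 5387 and 5559 UMIs against 2882 and 2794 in NK barcodes. The make-up of the class differed between the libraries, with Gzmc at 1400 CPM in the wildtype and 305 CPM in the 3XTg-AD library, Prf1 at 267 and 110 CPM, Zfp683 at 26.9 and 6.63 CPM, and Ckb at 40.4 and 137 CPM. The part of this difference in the ratios below was not tested.

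In ILC1-like barcodes the presentation list was lower in the 3XTg-AD library as well. It was at 9752 CPM in the wildtype and 7715 CPM in the 3XTg-AD library, a ratio of 0.791 (0.758 to 0.825). Of 17 measured genes 15 were below 1, against 50.2% of all 2731 measured genes, and 3 were at least 1.5-fold lower, against 5.86%, and 0 as much higher, against 5.42%. These were H2-Q4 at 0.586 (0.417 to 0.814), H2-Q7 at 0.6115 (0.469 to 0.792) and Tapbp at 0.6445 (0.455 to 0.903). The median log2 ratio was -0.38 for the list and 0.00 for all genes. H2-K1 was at 1908 and 1392 CPM, a ratio of 0.730 (0.661 to 0.805), and B2m at 1719 and 1401 CPM, a ratio of 0.815 (0.737 to 0.901). Without the 12 wildtype and 2 3XTg-AD ILC1-like barcodes of interferon score 5 or more, the list was at 0.829 (0.793 to 0.867), and 0 of 16 measured genes were at least 1.5-fold lower, against 5.31% of all genes, with H2-Q4 at 0.707, H2-Q7 at 0.720 and Tapbp at 0.713. The GTPase list was at 621 and 561 CPM, a ratio of 0.904 (0.767 to 1.06), with 4 genes measured, and at 1.04 (0.864 to 1.24) without those barcodes.

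Set against NK barcodes of the same library, ILC1-like barcodes had less of the classical heavy chains and relatively more of several other members, among them the light chain and proteasome activator. The median log2 ratio over all genes was -0.18 in the wildtype and -0.27 in the 3XTg-AD library, so the ratios are to be read against a background below 1. The presentation list summed to 0.926 (0.901 to 0.951) in the wildtype and 0.837 (0.809 to 0.867) in the 3XTg-AD library. In the wildtype 7 of 17 genes were below 1 (63.3% of all genes), 1 was at least 1.5-fold lower (24%) and 0 higher (9.2%). In the 3XTg-AD library 11 of 17 were below 1 (66.3%), 5 at least 1.5-fold lower (30.3%) and 0 higher (9.84%). The list medians were 0.08 and -0.11, which is 0.26 and 0.16 above the medians of all genes. Totals without ribosomal protein and mitochondrial genes moved every ratio by 0.21 and 0.27 on the log2 scale, which turned the 3XTg-AD list median to 0.16 (0.15 under median-of-ratios scaling) and left the distance to the all-gene median as it was. An interferon score of 5 or more was held by 11.9% of ILC1-like and 4.53% of NK barcodes in the wildtype. In the 3XTg-AD library the shares were 2.53% and 0.328%. Without those barcodes the presentation list was at 9086 against 10351 CPM in the wildtype and 7534 against 9209 CPM in the 3XTg-AD library. The score is a count of UMIs not scaled by depth, so a deeper barcode reaches 5 more readily. ILC1-like barcodes had medians of 5387 and 5559 UMIs against 2882 and 2794 in NK barcodes. The shares of the 2 classes are therefore not compared at equal depth.

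H2-K1 was at an ILC1-like over NK ratio of 0.754 (0.709 to 0.801) in the wildtype and 0.667 (0.614 to 0.723) in the 3XTg-AD library. H2-D1 was at 0.787 (0.740 to 0.837) and 0.6505 (0.600 to 0.704), and H2-Q7 was lowest of the chains, at 0.649 (0.557 to 0.754) and 0.552 (0.440 to 0.684). B2m went the other way, at 1.10 (1.03 to 1.18) and 1.13 (1.04 to 1.22), although it pairs with these chains. H2-T22 was at 1.24 (1.07 to 1.42) and 1.02 (0.843 to 1.22). Psme1 was at 1.20 (1.09 to 1.33) and 1.26 (1.13 to 1.41), and Tap2 at 0.694 (0.494 to 0.953) and 0.523 (0.355 to 0.746). Irf1 was among the lowest genes in both, at 0.564 (0.441 to 0.713) and 0.547 (0.415 to 0.709). H2-K1, H2-D1, H2-Q7, Tap2 and Irf1 thus stood below, and B2m and Psme1 above, the all-gene median in each library. B2m and Psme1 were not alone, since Psmb8 and Psmb9 also gave a larger share of the list's UMIs in ILC1-like than in NK barcodes. In the wildtype their shares were 7.18% against 6.02% and 2.73% against 1.88%. In the 3XTg-AD library they were 7.53% against 6.53% and 2.49% against 2.05%.

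The GTPase list summed to an ILC1-like over NK ratio of 1.03 (0.921 to 1.15) in the wildtype and 0.996 (0.872 to 1.13) in the 3XTg-AD library, with members at both ends. In the wildtype 3 of 12 measured genes were at least 1.5-fold higher (9.2% of all genes) and 2 lower (24%), and in the 3XTg-AD library 3 of 11 were higher (9.84%) and 1 lower (30.3%). Gbp9 was at 2.46 (1.57 to 3.74) and 2.02 (1.13 to 3.42), and Gbp8, which overlaps it, at 1.93 (1.30 to 2.82) and 1.61 (1.06 to 2.38). Tgtp2 was at 1.56 (0.883 to 2.60) and 1.97 (1.08 to 3.38). The same 3 genes were thus at least 1.5-fold higher in ILC1-like barcodes of both libraries. Ifi47 was at 0.830 (0.676 to 1.01) and 0.665 (0.515 to 0.847). Igtp, at 0.543 (0.299 to 0.916) in the wildtype and 1.08 (0.561 to 1.92) in the 3XTg-AD library, and Gbp3, at 0.423 (0.167 to 0.896) on 7 ILC1-like UMIs and 1.06 (0.515 to 1.98), did not lie on the same side in both. Without barcodes of interferon score 5 or more, the wildtype GTPase list was at 498 CPM in ILC1-like against 540 CPM in NK barcodes (260 and 2362 UMIs). In the 3XTg-AD library it was at 516 against 561 CPM (228 and 2610 UMIs). No interval was computed for these small differences. With all barcodes kept, the all-gene median log2 ratio of this contrast was itself -0.18 and -0.27, so they are not read as a lower level in ILC1-like barcodes. The part of those barcodes in the ratios of single genes was not tested.

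**Figure D4:**
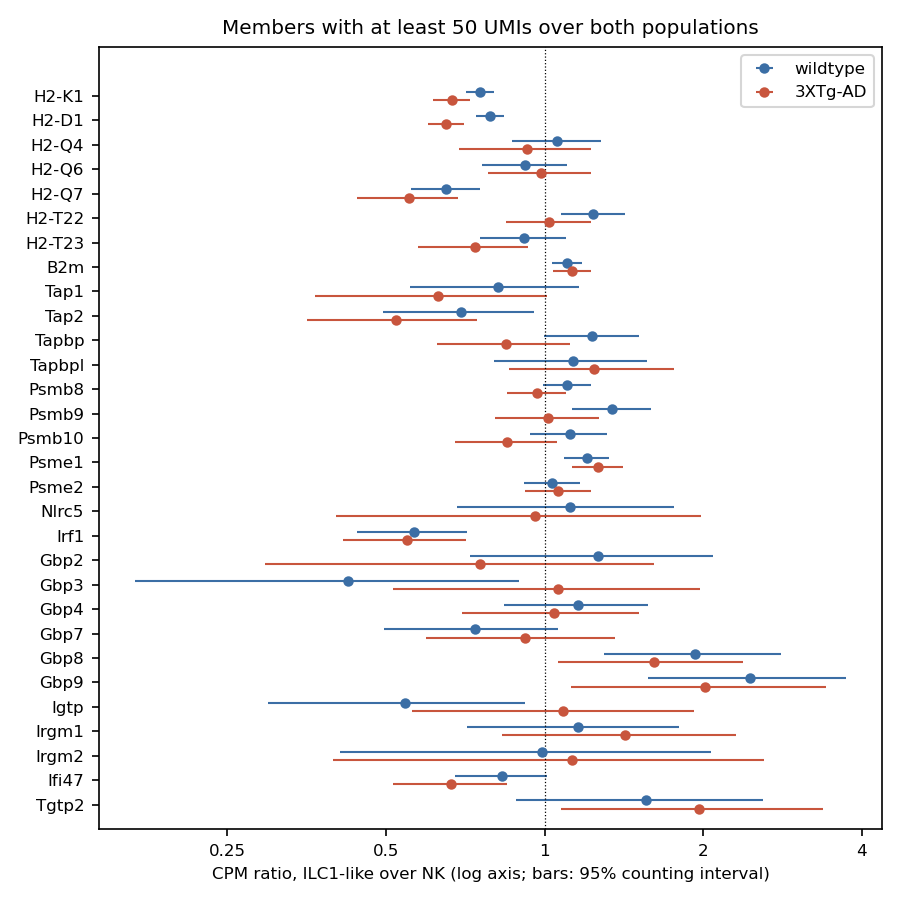
Ratio of CPM in ILC1-like barcodes to CPM in NK barcodes for each gene, in the wildtype and the 3XTg-AD library, on a log axis with 95% counting intervals as bars. Gbp9, Gbp8 and Tgtp2 lie above 1.5 in both libraries, and H2-K1 lies at 0.754 and 0.667.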

How the data were processed

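Per the file headers, the authors deposited a matrix of UMI counts per gene and barcode for each library, with no normalization. Per the submitters' processing notes, Cell Ranger 3.1.0, STAR and mm10 were used, and software 3.0.2 stands in the matrix headers. Which annotation release was used for counting is not known here. Gene coordinates come from GENCODE M21, matched by Ensembl identifier for 34 of 34 genes.

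Barcodes with fewer than 300 genes (45 wildtype, 10 3XTg-AD), over 10% mitochondrial UMIs (2 and 0) or a Scrublet doublet call (13 and 22) were left out, leaving 1649 and 1663. T, B, myeloid, erythroid and neutrophil barcodes were removed by marker counts, then ILC1-like and NK barcodes were called. A gene with fewer than 50 UMIs over both sums entered no count or median. Python 3.11.15, numpy 2.4.6, scipy 1.17.1, pandas 2.3.3, scanpy 1.11.5 and matplotlib 3.10.9 were used. Members and lists were chosen with earlier results of these data known. All 34 members are named, plus up to 3 genes of each further list with the largest absolute log2 ratio in NK barcodes, and class markers. The ratio step was tested on simulated data for the 8566 genes of the NK comparison, some of which were given a known change. Among those left without change, the 95% intervals held the true ratio for 95.7%, and 1.82% passed 1.5-fold. These counts were drawn with counting error only, so the test does not cover variation between cells.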

Additional observations from a re-analysis of the deposited data

Results flagged for a closer look

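Irf1, the interferon-regulatory factor, went in opposite directions between the libraries in the 2 NK populations defined by status. In Klrg1-only barcodes it was at 232 CPM (545 UMIs) in the wildtype and 265 CPM (613 UMIs) in the 3XTg-AD library, a ratio of 1.14 (1.02 to 1.28). In Cd27-only barcodes it was at 234 CPM (98 UMIs) and 155 CPM (53 UMIs), a ratio of 0.665 (0.467 to 0.938). It was singled out because each library pair moves one way in one population and the other way in the other. The difference was not tested, since each group has 1 library.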

How the results depend on the processing

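In NK barcodes the presentation median (3XTg-AD over wildtype) kept its sign in 17 of 17 settings (log2 -0.16 to -0.09), as did the GTPase median (-0.24 to -0.03), and in ILC1-like barcodes the presentation median did so in 17 of 17 (-0.49 to -0.29). The count of GTPase genes at least 1.5-fold lower in NK barcodes, 1 in the report, was 2 after thinning to 1400 UMIs, 3 and 4 with a minimum of 20 or 1 UMI, and 0 without barcodes of interferon score 5 or more, or of 10 or more. The presentation count, 0 in the report, became 1 (H2-Q4) under totals without ribosomal protein and mitochondrial genes, median-of-ratios scaling, at least 500 genes per barcode, an ILC1-like threshold of 5 UMIs, or without the deepest 1% of barcodes. The ILC1-like over NK presentation median, 0.08 in the wildtype, was 0.29 and 0.26 under those scalings in turn, and the 3XTg-AD value of -0.11 became 0.16 and 0.15. The presentation median kept its sign in 14 of 18 (wildtype) and 16 of 18 (3XTg-AD) settings for ILC1-like over NK, and for Klrg1-only over Cd27-only in 12 of 18 in the wildtype (-0.10 to 0.05) and 18 of 18 in the 3XTg-AD library. GTPase medians varied too, keeping their sign in 12 of 16 settings in ILC1-like barcodes between libraries (-0.26 to 0.29) and, for ILC1-like over NK, in 13 of 18 (wildtype) and 14 of 18 (3XTg-AD). The depth window of 4000 to 8000 UMIs was chosen after seeing the data. Few UMIs limit Gbp6, Iigp1 and Tgtp1, which stay below the minimum. No paired analysis was possible because each group has 1 library.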
